A study of Homo sapiens with 9 samples.

Results

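The 40 genes described here build or control the cornified envelope of squamous epithelium. They comprise 4 peptidyl-arginine deiminases, 13 envelope precursors, 4 transglutaminases, 6 S100 and secreted defence proteins, 6 kallikreins and protease inhibitors, and 7 transcription factors and cell-cycle regulators. The list was drawn up by gene name, with earlier results of these data known, and all 40 were found among the 47753 genes on the arrays, of which 22439 had a RefSeq symbol. Each gene was read on its brightest probe; 32 of the 40 had 1 probe and 8 had more. LOR carries the newer RefSeq symbol LORICRIN.

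RNA came from OEC-M1, an established HNSCC cell line, and the study asked which transcripts depend on GATA3 and on HIF-1α in hypoxia. There were 3 arrays of cells given non-targeting siRNA (labelled siControl, here si-Control), 3 of cells given GATA3 siRNA (siGATA3, here GATA3 knockdown) and 3 of cells given HIF-1α siRNA (siHIF1A, here HIF-1α knockdown). All 9 samples, the controls included, had been kept at 1% O2 for 18 h and were taken 72 h after transfection, so no difference below is one between oxygen levels. The number in each sample title was read as a replicate number. Per the legend to the study's supplementary comparison of these profiles, each knockdown used a single siRNA, so effects of that siRNA on other transcripts and effects of losing its target cannot be told apart. The labels do not say that the 3 samples of a group were separate cultures, so the P-values measure the spread between arrays, which may be technical.

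In the outer layers of squamous epithelium, keratinocytes stop dividing and replace their plasma membrane with a cornified envelope. Envoplakin, periplakin and involucrin line the membrane first, loricrin and the small proline-rich (SPRR) proteins are added later, and transglutaminases join them by isopeptide bonds. Peptidyl-arginine deiminases turn arginine into citrulline in keratins and filaggrin, kallikreins cut the junctions between dead cells, and many squamous carcinomas keep part of this programme.

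The choice of genes did not use their promoters. Of the 40 genes, 32 had a promoter in the RefSeq table (GRCh38.p14, 250 bases before to 50 bases after the start site). The AP-1 motif, TGANTCA on either strand, was in 13 of these 32 promoters (40.6%) and in 7.76% of the 27305 promoters in the table. It was in 9 of 11 envelope precursor promoters and in 4 of the 21 others. The 7 sites below, of envelope genes in the epidermal differentiation complex on chromosome 1, are shown because the motif recurs in them, and each runs 5′ to 3′ on the gene's own strand with the motif in capitals.
FLG, chr1:152325295-152325335: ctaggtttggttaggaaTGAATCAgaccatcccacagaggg
IVL, chr1:152908406-152908446: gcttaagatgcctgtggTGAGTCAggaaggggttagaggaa
LOR, chr1:153259622-153259662: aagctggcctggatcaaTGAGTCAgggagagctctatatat
SPRR1A, chr1:152983956-152983996: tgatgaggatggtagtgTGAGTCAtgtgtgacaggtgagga
SPRR1B, chr1:153031075-153031115: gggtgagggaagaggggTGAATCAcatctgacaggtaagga
SPRR2A, chr1:153057686-153057726: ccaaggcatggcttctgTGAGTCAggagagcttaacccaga
SPRR3, chr1:153001562-153001602: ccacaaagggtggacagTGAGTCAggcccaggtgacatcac
FLG and SPRR2A lie on the minus strand and the other 5 on the plus strand. Counted from the start site, the motif began at -197 in SPRR2A, the farthest of the 7, and at -48 in LOR, the nearest. The core of the hypoxia response element (ACGTG or GCGTG, either strand) was in 13 of the 32 promoters (40.6%) and in 48.4% of all promoters. The GATA motif (AGATAA or TGATAA, either strand) was in 5 of the 32 (15.6%) and in 16.6% of all. These matches are a description of letters in a window, and binding was not measured here.

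The arrays differed in brightness. The median spot intensity ran from 992.5 to 2807.5 on the si-Control arrays. It ran from 1410 to 2452 in GATA3 knockdown and from 2132 to 3560 in HIF-1α knockdown. The share of spots well above background was 86.3% to 88.5% on the si-Control arrays and 80.8% to 87.5% in HIF-1α knockdown. In GATA3 knockdown it was 74.3% to 83.7%, below every si-Control array. Whether this bears on the genes that were lower in GATA3 knockdown was not tested. Each of the 3 slides held 1 array of each group. Spots marked as non-uniform, 0.149% to 8.67% of an array, were set to missing, which left between 30 and 40 of the listed genes with a value on an array; 28 of the 40 had a value on all 9. GATA3 itself was at 10.71, 11.12 and 11.48 (normalized log2 intensity) on the si-Control arrays and at 9.64, 9.48 and 10.40 in GATA3 knockdown (difference -1.26, SE 0.34). HIF1A was at 16.74, 16.23 and 17.18 on the si-Control arrays and at 14.50, 14.13 and 14.59 in HIF-1α knockdown (difference -2.31, SE 0.35). All 9 epithelial identity markers, among them EPCAM, CDH1 and KRT8, were well above background on all 9 arrays, as was the basal keratin gene KRT14, whereas KRT5 was on none. The same mark was set on all arrays for 6 of 7 leukocyte and 4 of 5 endothelial markers, so it does not separate cell types here.

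In GATA3 knockdown, EVPL and OVOL1 passed the unadjusted threshold, both lower than in si-Control, and no listed gene rose past it. EVPL encodes envoplakin, a plakin that anchors the envelope to desmosomes and keratin filaments, and OVOL1 encodes a zinc finger repressor that takes keratinocytes out of the cell cycle. The 2 genes are 5.0% of the 40 tested, and 2.94% of all 47720 genes tested passed the same threshold (two-sided limma P of 0.05 or less, here named a call), 1.58% as higher and 1.36% as lower. The median difference of the 40 genes was -0.10 on the log2 scale and that of all genes -0.02, with 13 listed genes above 0 and 27 below. In bulk RNA, fewer cells that express a gene and less of its RNA per cell cannot be told apart. No gene on the arrays had an adjusted P of 0.05 or less in this comparison.

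EVPL was at 13.56, 13.68 and 13.67 on the si-Control arrays and at 12.80, 13.06 and 13.09 in GATA3 knockdown. The 3 knockdown arrays lay below the 3 control arrays with no overlap, and the gap was larger than the spread within either group. Of all genes with a value on these 6 arrays, 6.02% had groups that did not overlap, and of the 33 such listed genes 18.2%. The difference was -0.65 (SE 0.21, 95% interval -1.12 to -0.17), or 1.57-fold lower, with an unadjusted limma P of 0.01242 and an adjusted limma P of 1. Within the 3 slides it was -0.76, -0.62 and -0.57. EVPL was the only one of the called genes in this comparison to pass with each of the 9 arrays left out in turn (-0.70 to -0.56) and under all 11 other settings.

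OVOL1 was at 11.34, 12.00 and 12.29 on the si-Control arrays and, in GATA3 knockdown, at 10.30 and 11.25 on the arrays of replicates 1 and 3, the spot of replicate 2 being non-uniform. The 2 knockdown values lay below all 3 control values, the higher of them by 0.09. The difference was -1.10 (SE 0.38, 95% interval -1.97 to -0.23), or 2.15-fold lower, with an unadjusted limma P of 0.01865 and an adjusted limma P of 1. It was -0.63 and no longer past the threshold without replicate 1 of GATA3 knockdown, and -1.15 with the non-uniform spot kept.

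With the slide as a block, 6 listed genes passed in GATA3 knockdown against 5.0% of all genes. The 4 added genes were PPL, SBSN, KLK10 and PADI4. PPL, which encodes periplakin, the partner of envoplakin in the envelope, differed by -0.51, -0.61 and -0.92 on the 3 slides, a mean of -0.68 with an unadjusted limma P of 0.0276 with the block and 0.06525 without it. SBSN, which encodes the secreted keratinocyte protein suprabasin, differed by 0.42, 0.73 and 0.88, a mean of 0.68 with an unadjusted limma P of 0.02563 with the block and 0.05067 without it. Both plakins were thus lower and suprabasin higher on every slide. KLK10, a kallikrein protease, differed by -0.02, -1.01 and -0.77. PADI4, the deiminase best known from neutrophils, was well above background on 1 si-Control array and on no GATA3 knockdown array. It was at 8.72, 7.63 and 7.94 on the si-Control arrays, the first of them the one above background, and at 7.55, 7.47 and 7.46 in GATA3 knockdown, so only 1 of these 6 values is of a spot well above background. Of the 13 calls in the 3 comparisons, that of S100A7 between the knockdowns was the only one lost with the block, and GRHL3 was gained there (0.80). The other GRHL3 probe, well above background on all 9 arrays, went the opposite way (-0.56 between the knockdowns without the block, unadjusted limma P of 0.08371, beside 0.53 for the brighter probe), so the probes of this gene disagreed.

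In HIF-1α knockdown, PADI1 and ZNF750 were higher than in si-Control and SPRR2A was lower. PADI1 encodes a peptidyl-arginine deiminase of the epidermis, ZNF750 a zinc finger factor that acts below p63 in terminal differentiation, and SPRR2A a small proline-rich precursor that is cross-linked into the envelope. The 3 genes are 7.69% of the 39 tested, and 5.22% of all 47368 genes passed, 1.97% as higher and 3.25% as lower. The median of the listed genes was -0.04 and that of all genes -0.01, with 16 listed genes above 0 and 23 below. KLK7 was not tested because its spot was non-uniform on all 3 HIF-1α knockdown arrays.

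PADI1 was at 8.98, 8.87 and 10.22 on the si-Control arrays, at 9.15, 8.45 and 9.64 in GATA3 knockdown and at 11.60, 11.21 and 10.96 in HIF-1α knockdown. All 3 HIF-1α knockdown arrays lay above the other 6 arrays, and the si-Control and GATA3 knockdown arrays overlapped. The difference between HIF-1α knockdown and si-Control was 1.90 (SE 0.42, 95% interval 0.97 to 2.84), or 3.74-fold higher, with an unadjusted limma P of 0.001113 and an adjusted limma P of 0.5494. Within the 3 slides it was 2.62, 2.34 and 0.74. It passed with each array left out in turn (1.66 to 2.33) and under all 11 other settings (1.90 to 2.33). The probe was well above background on all si-Control and HIF-1α knockdown arrays and on 2 of 3 in GATA3 knockdown.

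PADI2, PADI3 and PADI4, the neighbours of PADI1 on chromosome 1, did not pass. PADI3, the deiminase of hair follicle proteins, was at 9.81, 9.54 and 9.68 on the si-Control arrays and at 9.99, 9.83 and 9.95 in HIF-1α knockdown. Its groups did not overlap, but the difference was 0.25 (95% interval -0.23 to 0.72). Non-overlap in this comparison held for 13.3% of all genes with a value on these 6 arrays and 13.8% of the listed ones. PADI2, the most widely expressed deiminase, differed by 0.33 (95% interval -0.79 to 1.45). Whether PADI1 differed from its neighbours was not tested. The 250 bases before the PADI1 start site are shown because PADI1 had the largest difference of the listed genes in this comparison, and none of the 3 motifs is in them.
PADI1, chr1:17204878-17205127, plus strand: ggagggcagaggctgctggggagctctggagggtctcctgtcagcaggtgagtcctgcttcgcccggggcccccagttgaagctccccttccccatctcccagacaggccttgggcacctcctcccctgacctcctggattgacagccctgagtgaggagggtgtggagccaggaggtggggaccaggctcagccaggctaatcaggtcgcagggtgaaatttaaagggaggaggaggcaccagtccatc

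SPRR2A was at 10.70, 10.96 and 11.19 on the si-Control arrays, at 11.57, 10.93 and 11.40 in GATA3 knockdown and at 9.90, 10.58 and 10.14 in HIF-1α knockdown. The HIF-1α knockdown arrays were the lowest 3 of the 9, with a gap of 0.12 to the next array. The difference from si-Control was -0.74 (SE 0.28, 95% interval -1.36 to -0.12), or 1.67-fold lower, with an unadjusted limma P of 0.02345 and an adjusted limma P of 0.8233. It was -0.81, -0.38 and -1.05 on the 3 slides. A dimmer probe of the gene, well above background on 5 of the 9 arrays, differed by -0.92 in HIF-1α knockdown. In GATA3 knockdown the probes disagreed, at 0.35 on the brighter and -0.61 on the dimmer, neither past the threshold. The call held in 5 of 9 fits with 1 array left out (-0.93 to -0.59). It was lost without replicate 2 or 3 of si-Control and without replicate 1 or 3 of HIF-1α knockdown, and with array brightness as a covariate (-0.49). SPRR genes are close copies of one another, and how far the probe separates SPRR2A from its neighbours in the family cannot be read from the files.

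ZNF750 was at 11.79, 10.96 and 10.89 on the si-Control arrays and at 12.43, 12.02 and 12.15 in HIF-1α knockdown. The lowest knockdown array was 0.23 above the highest control array. The difference was 0.99 (SE 0.39, 95% interval 0.12 to 1.85), or 1.98-fold higher, with an unadjusted limma P of 0.02936 and an adjusted limma P of 0.8233. In GATA3 knockdown the gene was at 11.99, 12.17 and 10.82, a range that spanned that of si-Control. The HIF-1α knockdown call was lost without replicate 2 or 3 of si-Control and without replicate 1 or 3 of HIF-1α knockdown (0.83 to 1.27 over the 9 fits), and with the processed signal, the authors' log2 table or array brightness as a covariate (0.61).

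**Figure D1:**
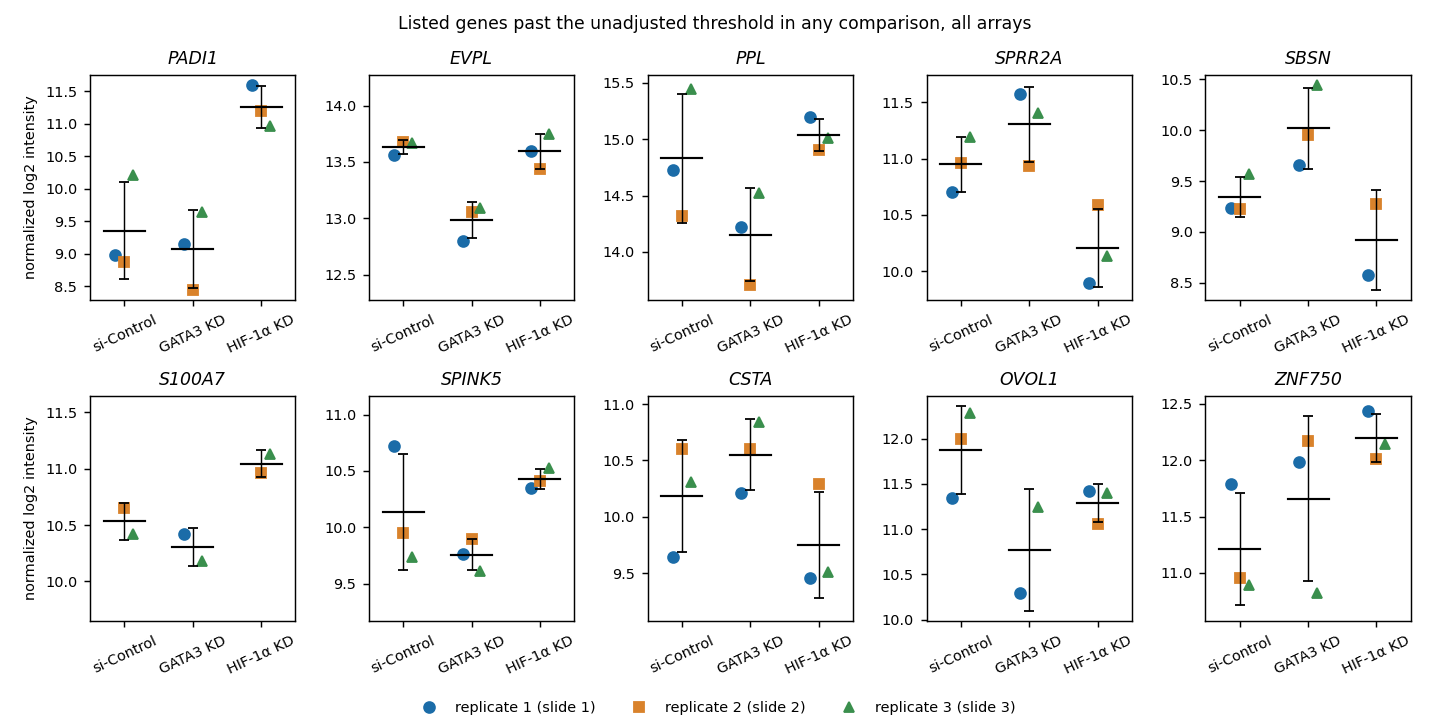
Normalized log2 intensity (vertical axis) of the 10 listed genes past the unadjusted threshold in any of the 3 comparisons, by group (KD, knockdown); each point is 1 array, its colour and shape give the replicate and slide, the line is the group mean and the bar 1 SD. PADI1 is higher on all 3 HIF-1α knockdown arrays than on the other 6, EVPL is lower on all 3 GATA3 knockdown arrays than on the other 6, and OVOL1, SBSN and S100A7 lack points where the spot was non-uniform.

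The direct comparison of the 2 knockdowns does not use the si-Control means, which both comparisons above share. It is the test of whether a listed gene differed between GATA3 and HIF-1α knockdown, and 8 of 39 passed (20.5%), against 12.0% of all 47356 genes tested (6.94% higher and 5.08% lower in GATA3 knockdown). How the list stood to all genes depended on the fit: with the slide as a block 8 listed genes passed against 19.0% of all genes, in fits of the 6 knockdown arrays 7 against 18.2%, and with the processed signal 3 against 10.1%. By adjusted limma P, 0 of the 39 and 0.00422% of all genes passed. PADI1, EVPL, PPL, SPINK5 and S100A7 were lower in GATA3 than in HIF-1α knockdown, and SPRR2A, SBSN and CSTA were higher. The 2 plakin genes were thus on one side and SPRR2A and SBSN on the other. The median of the 39 was -0.08 and that of all genes 0.00.

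For PADI1 the difference, GATA3 knockdown minus HIF-1α knockdown, was -2.18 (SE 0.42), or 4.52-fold, with an unadjusted limma P of 0.000421 and an adjusted limma P of 0.1614. On the 3 slides it was -2.45, -2.76 and -1.32. With array brightness as a covariate it was -2.62 with an adjusted limma P of 0.04749, and with the slide as a block the adjusted limma P was 0.05974. For SPRR2A the difference was 1.10 (SE 0.28), or 2.14-fold, with an unadjusted limma P of 0.002784 and an adjusted limma P of 0.2832. Both genes passed with each array left out in turn and under all 11 other settings. The dimmer SPRR2A probe differed by 0.31 and did not pass.

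EVPL was at 13.59, 13.44 and 13.75 in HIF-1α knockdown, above all 3 GATA3 knockdown arrays, and the difference was -0.61 (SE 0.21). PPL was at 14.73, 14.32 and 15.44 on the si-Control arrays, at 14.22, 13.71 and 14.52 in GATA3 knockdown and at 15.20, 14.91 and 15.01 in HIF-1α knockdown. The knockdowns did not overlap, as for 22.8% of all genes with a value on these 6 arrays and 17.9% of the listed ones. The si-Control arrays of PPL spanned from below the highest GATA3 knockdown array to above all HIF-1α knockdown arrays. The difference between the knockdowns was -0.89 (SE 0.33). The PPL call was lost without replicate 2 of GATA3 knockdown or replicate 1 of HIF-1α knockdown and with the processed signal or the authors' table, and the EVPL call without replicate 1 of GATA3 knockdown or replicate 3 of HIF-1α knockdown.

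SBSN was at 9.24, 9.23 and 9.56 on the si-Control arrays, at 9.66, 9.96 and 10.45 in GATA3 knockdown and at 8.58 and 9.27 on 2 HIF-1α knockdown arrays. Every GATA3 knockdown array was above every other value, and the difference between the knockdowns was 1.09 (SE 0.33). The third HIF-1α knockdown spot was non-uniform, and with it kept the difference was 0.41 and did not pass. The call was also lost with the processed signal, with the authors' table and without replicate 1 of HIF-1α knockdown, and the lowest value under another setting was 0.22. CSTA, which encodes the cysteine protease inhibitor cystatin A of the envelope, was at 10.21, 10.60 and 10.84 in GATA3 knockdown and at 9.46, 10.29 and 9.51 in HIF-1α knockdown, with 9.64, 10.60 and 10.31 on the si-Control arrays. The knockdowns overlapped by 1 array, the difference was 0.80 (SE 0.34), and the call held in 5 of the 9 fits that omit an array. Of 11 other settings it held under 7 and was lost with the processed signal, the authors' table, array brightness as a covariate, and the trend and robust options of eBayes.

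SPINK5, which encodes LEKTI, the inhibitor that holds back kallikreins, was at 9.77, 9.89 and 9.62 in GATA3 knockdown, at 10.35, 10.41 and 10.53 in HIF-1α knockdown and at 10.72, 9.95 and 9.74 on the si-Control arrays. The knockdowns were tight and apart (-0.67, SE 0.28), while the si-Control values ran from inside the GATA3 knockdown range to above that of HIF-1α knockdown. The call held in 4 of the 9 fits that omit an array and under 6 of 11 other settings (-0.95 to -0.20). There were 2 dimmer probes of the gene, which differed by 0.18 and -0.11. They were well above background on only 3 and 1 of the 9 arrays, so they say little about the call. S100A7, psoriasin, an antimicrobial S100 protein, was at 10.42 and 10.18 in GATA3 knockdown, at 10.96 and 11.13 in HIF-1α knockdown and at 10.65 and 10.42 on 2 si-Control arrays. The difference between the knockdowns was -0.74 (SE 0.30) from 2 arrays each, and it passed in 3 of the 9 fits that omit an array and in 2 of 11 other settings, the slide block not among them. Between the knockdowns, the adjusted limma P of EVPL, PPL, SBSN, CSTA, SPINK5 and S100A7 lay between 0.3507 and 0.4138.

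**Figure D2:**
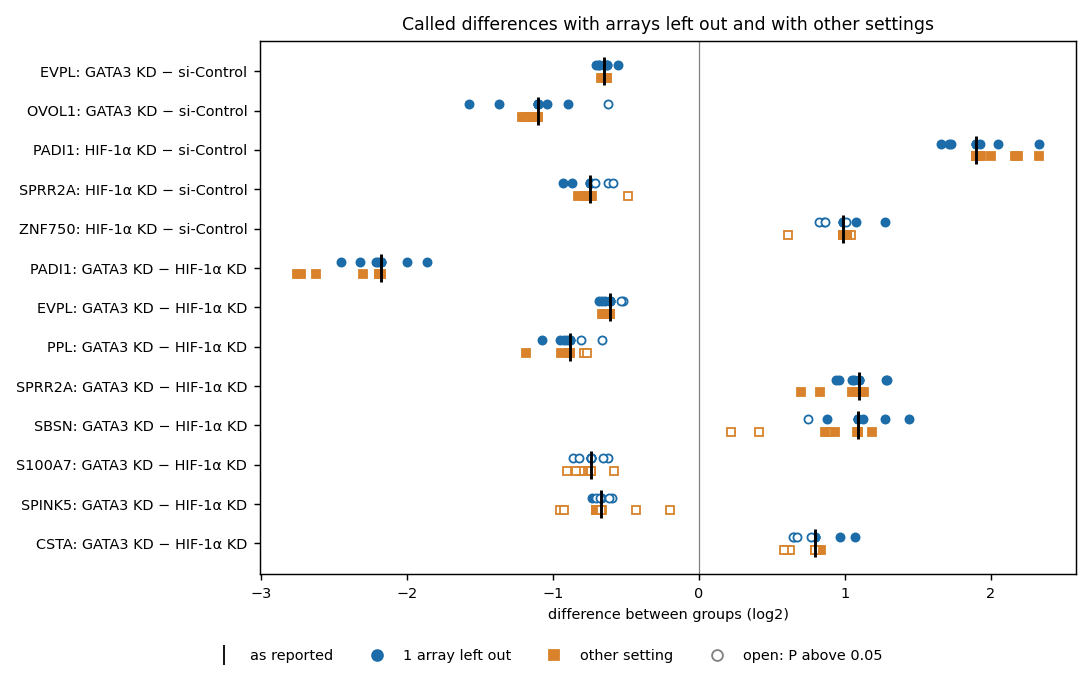
Difference between groups on the log2 scale (horizontal axis) for each of the 13 calls of a listed gene in a comparison; the black mark is the value reported, blue circles leave out 1 array, orange squares use another setting, and open symbols have an unadjusted P above 0.05 (KD, knockdown). No symbol crosses 0, the PADI1 symbols and those of EVPL in GATA3 knockdown against si-Control are all filled, and most of the S100A7 symbols are open.

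The remaining 30 listed genes did not pass in any of the 3 comparisons on their brightest probes, and how closely that bounds them depended on the gene. The 95% intervals reached a median of 0.76 to either side on the log2 scale in both comparisons with si-Control, from 0.45 to 2.33. The whole interval lay between -1 and 1, a change under 2-fold, for 15 of 40 genes in the GATA3 comparison and 11 of 39 in that of HIF-1α.

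Among the envelope precursors, IVL, FLG and SPRR1A had intervals between -1 and 1 in both knockdowns on their brightest probes. IVL, involucrin, was at 16.80, 17.00 and 17.15 on the si-Control arrays, at 16.81, 16.84 and 17.26 in GATA3 knockdown and at 16.63, 16.91 and 17.35 in HIF-1α knockdown. The 3 groups covered each other, and the differences were -0.02 (95% interval -0.60 to 0.57) and -0.02 (95% interval -0.61 to 0.56). FLG, filaggrin, which bundles keratin filaments and is broken down to moisturising amino acids, differed by -0.08 (95% interval -0.54 to 0.39) and -0.18 (95% interval -0.65 to 0.29). SPRR1A differed by 0.15 (95% interval -0.30 to 0.60) and 0.05 (95% interval -0.40 to 0.50). Its dimmer probe, well above background on all 9 arrays, differed by -0.42 and 0.29. The dimmer FLG probes, well above background on 8 and 9 arrays, differed by -0.47 and -0.24 in GATA3 knockdown. In HIF-1α knockdown they differed by -0.35 and 0.43. The bounds on these genes thus hold for the brightest probe only. SCEL, sciellin, differed by -0.03 and -0.04. CNFN, cornifelin, differed by -0.04 in GATA3 knockdown and -0.48 (95% interval -1.10 to 0.14) in HIF-1α knockdown.

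SPRR1B had the largest uncalled difference in HIF-1α knockdown, -0.96 (95% interval -2.15 to 0.23). It was at 10.11, 11.57 and 9.54 on the si-Control arrays, at 9.81, 10.02 and 9.45 in GATA3 knockdown and at 9.33 and 9.56 on 2 HIF-1α knockdown arrays. Replicate 2 of si-Control stood above all other arrays. With the non-uniform spot of HIF-1α knockdown replicate 1 kept, at 10.66, the SPRR1B difference in HIF-1α knockdown was -0.55. LOR, SPRR3 and CDSN, which encodes the junction protein corneodesmosin, had only 4, 5 and 5 array values. Their differences from si-Control lay between -0.56 and 0.22. The interval of CDSN in GATA3 knockdown was -0.91 to 0.71, and the others reached beyond 1 log2 unit on at least 1 side.

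None of the transglutaminases passed. TGM2, the ubiquitous tissue enzyme, differed by 0.20 (95% interval -0.47 to 0.86) in GATA3 knockdown and 0.36 (95% interval -0.30 to 1.03) in HIF-1α knockdown. TGM3 and TGM5, the epidermal enzymes, differed by -0.45 and -0.39 in GATA3 knockdown, and by -0.01 and -0.41 in HIF-1α knockdown. TGM1, the membrane-bound keratinocyte enzyme, was at 12.05, 14.68 and 12.04 on the si-Control arrays, at 14.33, 14.49 and 11.62 in GATA3 knockdown and at 11.90, 14.60 and 11.47 in HIF-1α knockdown. Its values fell into 2 levels with a gap of 2.28 between them, 4 arrays above and 5 below, and each group held both levels. Its pooled SD within groups was 1.61, at the 99.9th percentile of all genes, and its interval in each comparison spanned 2.33 to either side.

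The spread within groups, over all 40 genes, was near that of other genes: the median pooled SD was 0.397 for the listed genes and 0.413 for all genes. After TGM1, the widest were S100P (1.27), KLF4 (1.07) and LCN2 (0.84), singled out here after their values were seen. KLF4, a zinc finger factor that barrier formation requires, was at 12.82, 13.37 and 15.44 on the si-Control arrays, at 13.94, 12.79 and 14.97 in GATA3 knockdown and at 13.40, 13.22 and 14.27 in HIF-1α knockdown. S100P, a calcium-binding S100 protein, was at 10.72, 10.07 and 13.21, at 11.23, 9.42 and 11.66 and at 11.50, 10.60 and 12.26 on the same arrays. In each group KLF4 and S100P were highest in replicate 3, the third slide.

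**Figure D3:**
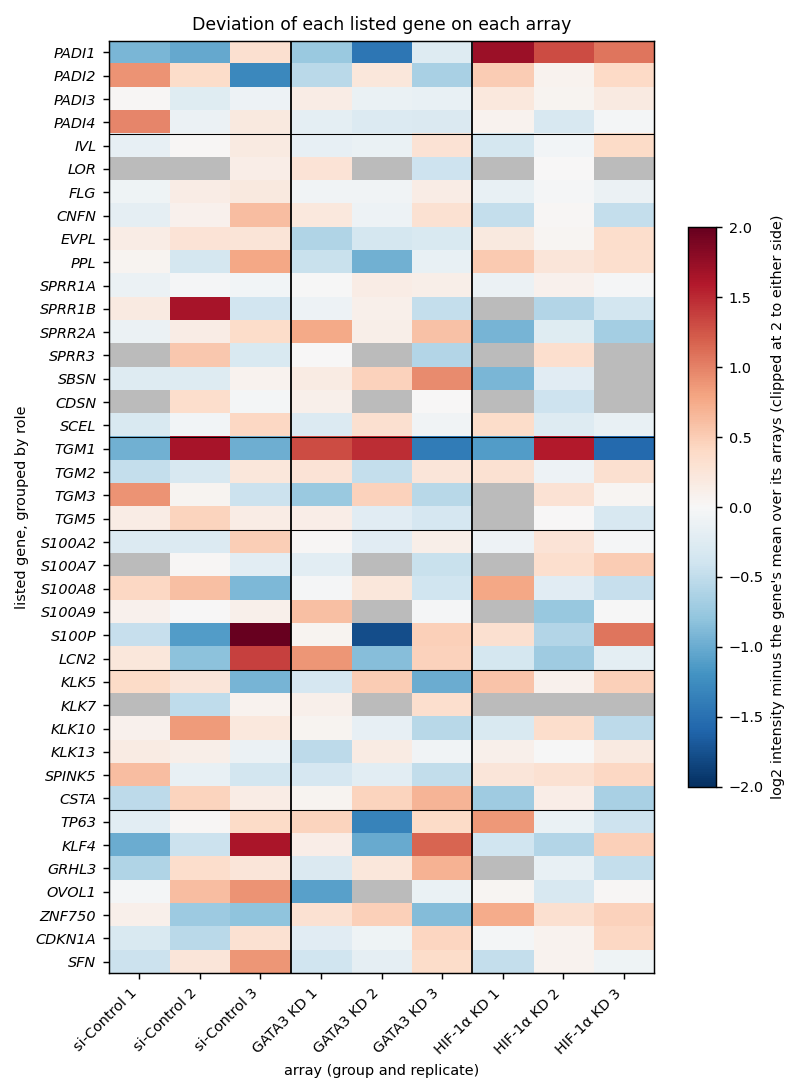
Deviation of each of the 40 listed genes (rows, grouped by role) from its own mean over the arrays, in log2 units, on each of the 9 arrays (columns; KD, knockdown), clipped at 2 to either side; grey marks a missing spot. PADI1 is raised on the 3 HIF-1α knockdown arrays, TGM1 splits the arrays within every group, and KLF4 and S100P are raised on the third array of each group.

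Of the other S100 and secreted defence proteins, S100A8 and S100A9, which pair as calprotectin, differed by -0.11 and 0.23 in GATA3 knockdown and by -0.01 and -0.44 in HIF-1α knockdown. S100A2, an S100 protein that p63 regulates, differed by -0.01 (95% interval -0.62 to 0.60) and 0.06 (95% interval -0.55 to 0.67). LCN2, the iron-sequestering lipocalin, differed by -0.09 and -0.67 (95% interval -1.94 to 0.59).

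Of the kallikreins, KLK5, which starts the cascade of desquamation, differed by -0.17 and 0.48 and KLK13 by -0.20 and 0.03, neither past the threshold. A dimmer KLK13 probe, well above background on 7 arrays, differed by 0.89 in HIF-1α knockdown (unadjusted limma P of 0.002042). Between the knockdowns it differed by -0.87 (unadjusted limma P of 0.002509), where KLK13 also passed with the mean of its probes. The probes of this gene thus disagreed, and only its brightest probe was counted. KLK7, the chymotrypsin-like partner of KLK5, differed by 0.44 (95% interval -0.45 to 1.33) in GATA3 knockdown. With non-uniform spots kept it was 0.83 higher in HIF-1α knockdown with an unadjusted limma P of 0.008854.

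Of the regulators, TP63, the master factor of stratified epithelium, differed by -0.23 (95% interval -1.34 to 0.88) in GATA3 knockdown and 0.04 (95% interval -1.07 to 1.15) in HIF-1α knockdown. GRHL3, a grainyhead factor that drives TGM1 and barrier closure, differed by 0.22 and -0.31, and on its dimmer probe by -0.63 and -0.07. CDKN1A, the p21 cell-cycle inhibitor, differed by 0.22 (95% interval -0.44 to 0.88) and 0.33 (95% interval -0.33 to 0.99). SFN, the 14-3-3 sigma protein, differed by -0.31 and -0.40. OVOL1 was at 11.42, 11.05 and 11.40 in HIF-1α knockdown, a difference of -0.59 (95% interval -1.36 to 0.19) from si-Control.

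**Figure D4:**
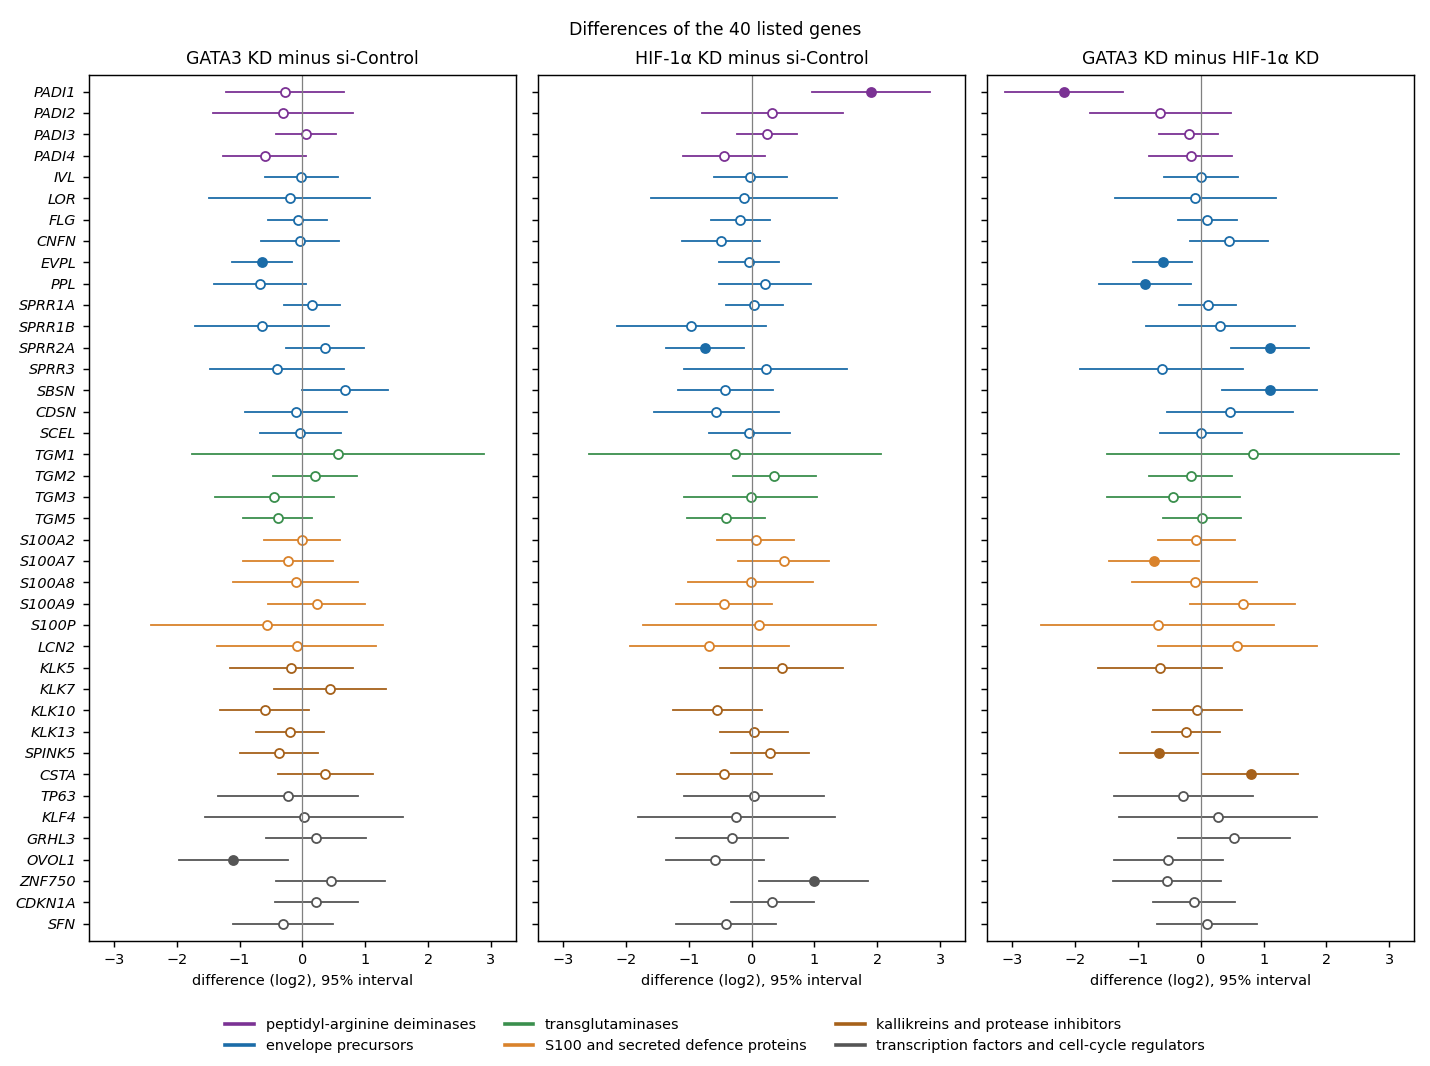
Difference on the log2 scale (horizontal axis, with its 95% interval) of each of the 40 listed genes, coloured by role, in GATA3 knockdown (KD) and in HIF-1α knockdown against si-Control and between the knockdowns; filled points have an unadjusted limma P of 0.05 or less. Filled points number 2, 3 and 8, and KLK7 has no value in the last 2 panels.

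Genes of the same programme outside the 40 were counted in the same fit, and each count below stands beside 2.94% of all genes in the GATA3 comparison, 5.22% in that of HIF-1α and 12.0% between the knockdowns. Of 38 envelope proteins and keratins, 0 passed in the GATA3 comparison and 0 of 37 in that of HIF-1α by the unadjusted limma P. Between the knockdowns 5 of 37 passed (13.5%), near the share of all genes: KRT13, CASP14, KRT6A and KRT1 were lower in GATA3 knockdown and KRTDAP was higher, named here after their values were seen. In GATA3 knockdown KRT1 had a value on 2 arrays and was well above background on 1 of 3, and KRT6A was on 2 of 3. Of 14 barrier lipid enzymes, 0 passed in either knockdown. Among 22 other proteases and inhibitors, 1 passed in the GATA3 comparison (4.55%) and 2 in that of HIF-1α (9.09%). CST6, cystatin M/E, which restrains the proteases that process transglutaminase 3, was lower in both knockdowns (-1.35, SE 0.31, and -1.04, SE 0.31), and PRSS8, the serine protease prostasin, was lower in HIF-1α knockdown (-0.52, SE 0.23). CST6 was at 12.53, 12.41 and 13.21 on the si-Control arrays, at 11.42, 11.01 and 11.65 in GATA3 knockdown and at 11.26, 11.77 and 12.01 in HIF-1α knockdown. Every control array lay above every knockdown array, and the 2 comparisons share those control arrays.

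Among 21 other keratinocyte regulators, 2 passed in the GATA3 comparison (9.52%) and 0 in that of HIF-1α. GRHL2, the grainyhead paralogue of GRHL3, fell by 0.95 (SE 0.25) and TFAP2C, AP-2 gamma, by 0.86 (SE 0.27) in GATA3 knockdown. Between the knockdowns the test of the difference also passed for both (-0.99 for GRHL2 and -0.66 for TFAP2C). Of 11 other S100 genes, 1 passed in the GATA3 comparison (9.09%) and 0 in that of HIF-1α: S100A4, a marker of motile cells, fell by 0.80 (SE 0.23) in GATA3 knockdown. Of 10 basal keratinocyte markers, 0 passed in the GATA3 comparison and 1 in the other: ITGB4, the hemidesmosomal integrin beta 4, was 0.89 higher (SE 0.36) in HIF-1α knockdown.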

How the data were processed

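The authors deposited 1 Agilent Feature Extraction 10.5.1.1 file (version per the submitters' processing notes) for each of 9 single-dye arrays, holding median spot and local background intensity, not normalized, and a table of log2 values, used as an alternative. In R 4.3.3 with limma 3.58.1, background was corrected by normexp with an offset of 50, non-uniform spots were set to missing, quantile normalization followed, control spots were excluded and spots of a probe averaged. RefSeq gave a symbol for the accession of 31104 of 58201 probes. The 3 groups were fitted in 1 model (lmFit, eBayes) over all genes, with no block for the slide. A gene was counted at an unadjusted two-sided P of 0.05 and adjusted P used Benjamini-Hochberg over all genes tested. The fit recovered 154 (GATA3 knockdown) and 149 (HIF-1α knockdown) of 200 genes changed by 1 log2 unit in simulated data of 39926 genes. Of the unchanged genes there, 5.33% and 5.15% passed, beside 2.94% and 5.22% of all genes on the arrays. The recovery therefore holds for the simulated data only. Recovery on the arrays themselves was not tested, nor was it for genes that lack a value, as 12 listed genes do. Precision is limited by 3 arrays a group.

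Replicate numbers matched slides. Deviations of same-numbered GATA3 knockdown and si-Control arrays correlated at 0.216, 0.591 and 0.722. Over the 9 pairs of all comparisons the range was -0.191 to 0.722. The reported fit did not use this pairing, and the slide as a block was an alternative. P-values are from the fit without the block unless the block is named. Values on every array are given for each listed gene counted in any comparison, and of each companion list up to 4 counted genes with the smallest P in each knockdown are named. The listed genes and companion lists were chosen with earlier results of these data known, and the AP-1 motif was added after the data were seen. Alternatives are named in the closing section. Some genes of the companion lists are not reported here and are not in their counts. Protein sequences and binding data were not analysed here.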

Additional observations from a re-analysis of the deposited data

How the results depend on the processing

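No called difference of a listed gene changed sign under any setting tried. Of the 13 calls, 6 passed under all 11 other settings and 4 whichever array was omitted (EVPL in GATA3 knockdown, PADI1 in HIF-1α knockdown, and PADI1 and SPRR2A between the knockdowns). The count of 2 listed genes in GATA3 knockdown was 6 with the replicate number, which is the slide, as a block, 5 with array brightness as a covariate and 2 to 5 with 1 array left out, reaching 4 without replicate 2 of si-Control or replicate 3 of GATA3 knockdown and 5 without replicate 3 of si-Control. The count of 3 in HIF-1α knockdown was 1 to 5 with 1 array left out, at 5 without replicate 1 of si-Control and 1 without replicate 1 or 3 of HIF-1α knockdown, and stayed at 3 with the block. With array brightness as a covariate PADI1, SPRR1B, TGM2 and CDKN1A passed in HIF-1α knockdown. PADI1 was thus the only reported call of this comparison kept under that setting. The count of 8 between the knockdowns was 3 with the software's processed signal, scaled at the 75th percentile, and with the authors' table, 5 with trend and robust options of eBayes, 8 with the block, and 3 to 8 with 1 array left out, at 5 without replicate 1 or 3 of GATA3 knockdown or replicate 3 of HIF-1α knockdown and at 3 without replicate 1 of HIF-1α knockdown. By adjusted limma P it was 0 in all 3 comparisons, from 2, 3 and 8 at the unadjusted threshold. Where 1 array is left out, limma still pools the spread over the groups. The other settings, normexp without an offset, no background correction, dim probes left out, non-uniform spots kept, the mean of a gene's probes and fits of 6 arrays, left each count within 1.5 times the reported one. The cause of these shifts was not tested. Over all genes, the share passing in GATA3 knockdown was 2.94% as reported, 5.0% with the block, 10.4% with brightness as a covariate and 12.7% without replicate 3 of si-Control, where 5 of 39 listed genes passed. In HIF-1α knockdown it was 5.22%, 8.90% with the block and 10.2% without replicate 1 of si-Control. Of the 40 genes, 12 lack a value on at least 1 array, most on the brighter arrays (30 listed genes had a value on the brightest and 40 on the dimmest). The 95% intervals of LOR and SPRR3 reached beyond 1 log2 unit in both knockdowns, and KLK7 could not be tested in that of HIF-1α.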

Other observations

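Other epithelial genes moved in GATA3 knockdown. Of 9 epithelial identity markers, 3 were lower than in si-Control at the unadjusted limma threshold: the tight junction genes CLDN4 (-1.44, SE 0.29) and CLDN7 (-1.22, SE 0.43), and KRT19, a keratin of simple epithelium (-0.72, SE 0.27). All 9 were below 0, with a median of -0.72, beside a median of -0.02 over all genes tested, of which 1.36% passed as lower. CLDN4 was at 14.46 and 14.17 on the 2 si-Control arrays with a value and at 12.81, 13.12 and 12.71 in GATA3 knockdown, with no overlap. The count of 3 was 1 without replicate 2 of GATA3 knockdown and 6 with array brightness as a covariate. In HIF-1α knockdown 0 of the 9 passed, 6 were above 0 and 3 below. Between the knockdowns 5 passed, all lower in GATA3 knockdown, beside 5.08% of all genes that passed as lower.

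Of 18 epithelial antimicrobial and IL-1 response genes, 3 were higher in GATA3 knockdown (16.7%), beside 1.58% of all genes that passed as higher. The list was drawn up with earlier results of these data known. The 3 were TNFAIP6, a hyaluronan-binding protein of inflammation (2.20, SE 0.38), ICAM1, an adhesion receptor for leukocytes (1.98, SE 0.48), and CXCL2, a neutrophil chemokine (0.93, SE 0.23). In HIF-1α knockdown 2 were lower (11.1%), beside 3.25% of all genes that passed as lower. These were TNFAIP3, the NF-kappa-B inhibitor A20 (-1.74, SE 0.72), and ICAM1 (-1.17, SE 0.48). ICAM1 was at 13.28, 14.17 and 15.36 on the si-Control arrays, at 16.56, 15.77 and 16.43 in GATA3 knockdown and at 12.61, 13.30 and 13.39 in HIF-1α knockdown. The 3 GATA3 knockdown arrays were the highest of the 9, and HIF-1α knockdown overlapped with si-Control on 1 control array. Between the knockdowns 10 of the 18 passed, 9 of them higher in GATA3 knockdown, beside 12.0% of all genes in either direction.

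Of 20 p53 targets, 1 passed in GATA3 knockdown (5.0%, against 2.94% of all genes) and 2 with HIF-1α siRNA (10.0%, against 5.22%). FDXR was lower in GATA3 knockdown (-0.86, SE 0.30) and SESN1 (-0.70, SE 0.27) and GADD45A (-1.32, SE 0.51) were lower in HIF-1α knockdown. Of markers of other cell types, the fibroblast marker DCN was lower in GATA3 knockdown (-1.08, SE 0.37), as 1 of 6 tested, with its probe well above background on 1 of the 3 GATA3 knockdown arrays and on all of si-Control, and 0 of 7 leukocyte and 0 of 5 endothelial markers passed in either knockdown.

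The 2 levels of TGM1 were shared by other probes. On si-Control replicate 2, GATA3 knockdown replicates 1 and 2 and HIF-1α knockdown replicate 2, TGM1 was at 14.33 or higher, and on the other 5 arrays at 12.05 or lower. Of 39926 genes with a value on all 9 arrays, 11, TGM1 included, had every one of those 4 arrays at least 2 above the other 5 on the log2 scale. The others with a symbol were SKOR2, ZC2HC1B, CCDC152 and SLC33A1, none of them known for a part in keratinocyte differentiation. No other listed gene was among them. What these probes share was not tested.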
